A study of Mus musculus with 6 samples.

Results

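The genes described are 10 enzymes, cofactors and transporters of proteoglycan and hyaluronan synthesis, taken by symbol from the 41388 genes in the count tables: *Ugdh*, *Slc26a2*, *Papss2*, *Xylt1*, *Csgalnact1*, *Chsy1*, *Chpf*, *Chst11*, *Ext1* and *Has2*. They were chosen by function, with earlier results of these data known. All 10 passed the filter on low counts (above 1 CPM, the count scaled to a common library total, in at least 2 samples), as did 14533 genes in all. Cartilage owes its stiffness to proteoglycans, core proteins such as aggrecan that carry sulfated sugar chains called glycosaminoglycans, and to the unsulfated chain hyaluronan on which aggrecan is anchored. Chain synthesis needs activated sugars and activated sulfate, a linker built on the core protein, polymerases that extend the chain and sulfotransferases that decorate it. Chondroitin sulfate is the main chain of aggrecan, heparan sulfate is carried by cell surface and pericellular proteoglycans, and inherited defects in several of these enzymes cause skeletal dysplasias in humans.

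Chondrocytes were isolated from the femoral heads of male B6/129 mice aged 21 days and cultured for 2 days before RNA extraction. Chondrocytes of 3 periostin knockout mice (*Postn*-/-) were compared with those of 3 wild-type mice (*wt*), to find baseline transcript differences. The knockout is carried by the whole animal rather than by chondrocytes alone, both genotypes came from crosses of heterozygous mice, and periostin is a matricellular protein studied in osteoarthritis. The counts summed to between 20587640 and 26572260 per sample, so that 3 reads corresponded to between 0.113 and 0.146 CPM, a limit that covers counting error only.

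The targeted gene *Postn* was at 4.66, 4.27 and 5.67 normalized CPM in *Postn*-/- replicates 1, 2 and 3 and at 10.1, 10.3 and 6.90 in *wt* replicates 1, 2 and 3, lower in each knockout sample than in each *wt* sample but still counted. Its log2 fold change of -0.91 (95% interval -1.42 to -0.39) had, in the edgeR test, an unadjusted p = 0.00362 (adjusted p = 0.717). The paper reports that knockout joints did not stain for the protein and that its serum level was negligible. Those are measures of protein, and the values here are RNA counts over the whole gene. As for the labelled cell type, all 8 chondrocyte markers, among them *Col2a1*, *Acan* and *Sox9*, were counted in all 6 samples, at a sum of 31207 to 41570 normalized CPM in *Postn*-/- and 24319 to 37462 in *wt*. The 6 fibroblast markers summed to 1151 to 2853 in *Postn*-/- and 1416 to 4130 normalized CPM in *wt*, and the 4 markers of hypertrophic chondrocytes to 2054 to 6434 and 1238 to 6171. Markers of macrophages and leukocytes (21.5 to 57.9 normalized CPM over the 6 samples) and of endothelium (4.65 to 10.2) were low, those of osteoblasts lay between 136 and 192 and those of osteoclasts, mostly *Ctsk*, between 315 and 457. All 5 tested markers of macrophages and leukocytes and all 4 of endothelium had a higher fitted level in *Postn*-/- (median log2 fold changes 0.42 and 0.32). In the edgeR test 0 of them had an unadjusted p no higher than 0.05. Red blood cell markers stayed at or below 0.524, with *Hba-a2* at 0 in every sample. The sum of 8 markers of dividing cells was 1222 normalized CPM in *wt* replicate 1 and between 322 and 751 in the other 5 samples. Each of these 8 had a lower fitted level in *Postn*-/- (median log2 fold change -0.63), 1 of them (*Ccnb1*) at an unadjusted p no higher than 0.05 and 0 after adjustment in the edgeR test. Of the 8 chondrocyte markers, 5 had a higher and 3 a lower fitted level in *Postn*-/- (median log2 fold change 0.20). The *Postn*-/- values of *Col2a1* all exceeded those of *wt* (log2 fold change 0.68, unadjusted p = 0.0125, adjusted p = 0.717, edgeR), and the part of these markers in the values of the 10 genes was not tested. In bulk RNA, fewer cells of a type and less RNA per cell cannot be told apart.

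None of the 10 genes passed a test between *Postn*-/- and *wt* chondrocytes. With the quasi-likelihood test of edgeR and p-values adjusted over all 14533 genes by the Benjamini-Hochberg method, 0 of the 10 had an adjusted p no higher than 0.05, where 0.0138% of all tested genes did. For the unadjusted p the count was also 0 of 10 at 0.05, against 6.3% of all tested genes (3.95% higher and 2.35% lower in *Postn*-/-), and the Wald test of DESeq2 and voomWithQualityWeights in limma also placed 0 of 10 under either threshold. The genotypes overlapped for each of the 10, while they did not overlap for 13.6% of all tested genes. Of the fitted log2 fold changes, *Postn*-/- over *wt*, 4 were positive and 6 negative, from -0.18 for *Csgalnact1* to 0.15 for *Ext1*, with a median of -0.03 beside a median of 0.0042 over all tested genes. The 95% intervals of the 10 differences reached at the lowest 0.621-fold (*Chsy1*) and at the highest 1.54-fold (*Ext1*), each the widest limit of that gene alone. For each of the 10 genes the log2 fold change was smaller in size than the SD of log2 CPM between replicates of 1 genotype.

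**Figure D1:**
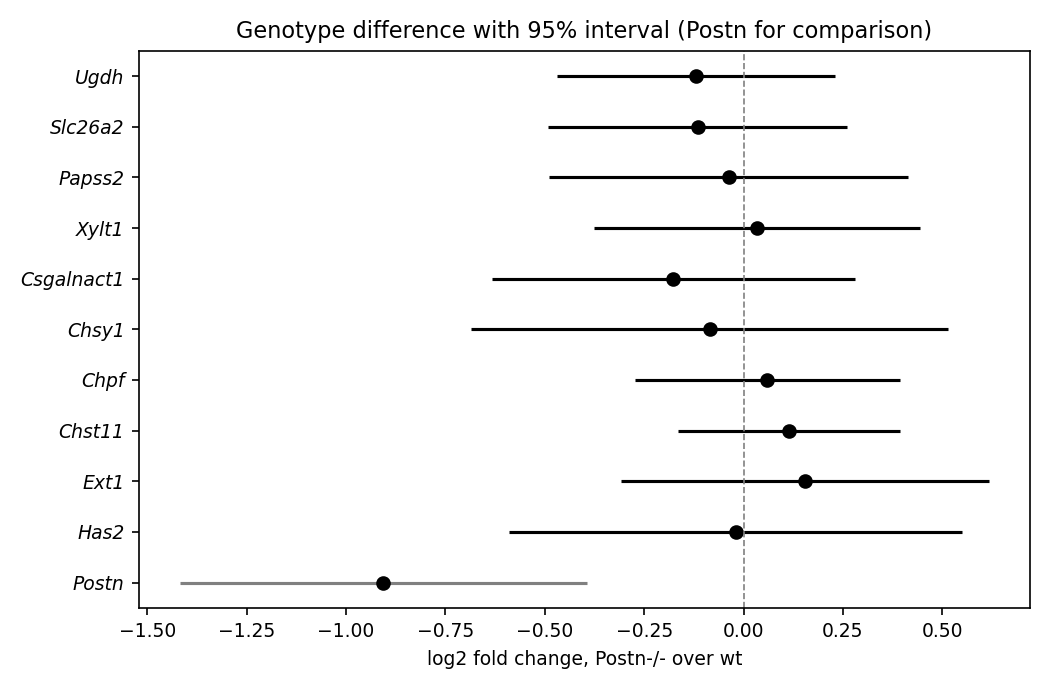
Log2 fold change, *Postn*-/- over *wt*, of the 10 genes and of *Postn* (points) with 95% intervals from the edgeR quasi-likelihood fit (lines). All 10 intervals include 0 and lie between -0.69 and 0.62, while *Postn* is at -0.91.

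The sequence shown here concerns *Papss2*, the most highly expressed of the 10 genes, because it has more than 1 annotated start and the gene model in the count tables holds only the downstream one. RefSeq places the starts 24290 bases apart on the plus strand of chromosome 19 (GRCm38.p6), and the first counted base, 32620005, is the first base after the second of these windows. The 250 bases before each start are given 5′ to 3′, with CG dinucleotides in capitals, since the windows differ most plainly in these.
*Papss2* upstream start, chr19:32595465-32595714: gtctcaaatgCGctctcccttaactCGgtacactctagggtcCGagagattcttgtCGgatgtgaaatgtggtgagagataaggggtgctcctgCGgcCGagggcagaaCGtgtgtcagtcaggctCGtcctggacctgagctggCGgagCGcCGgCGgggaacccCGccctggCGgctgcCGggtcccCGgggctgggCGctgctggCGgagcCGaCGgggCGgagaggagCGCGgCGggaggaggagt
*Papss2* downstream start, chr19:32619755-32620004: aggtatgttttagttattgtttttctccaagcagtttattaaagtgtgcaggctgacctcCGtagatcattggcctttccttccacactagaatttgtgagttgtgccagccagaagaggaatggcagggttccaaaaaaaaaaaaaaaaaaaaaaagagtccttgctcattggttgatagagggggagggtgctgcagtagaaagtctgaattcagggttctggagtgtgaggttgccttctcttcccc
The upstream window holds 24 CG dinucleotides at 67.6% G and C, and the downstream window holds 1 at 43.2%, beside medians of 6 and 52.4% over the 32851 promoters of the table. RefSeq windows were matched for *Chpf*, *Ugdh*, *Chsy1* and *Chst11* too, with 21 to 30 CG dinucleotides and 65.6% to 70.4% G and C. The GC box GGGCGG, searched on both strands, occurred at least once before the start of each of these 4 genes and in the upstream window of *Papss2*, but not in the downstream one, and it occurs in 32.7% of all windows of this length. The letters TATAAA were in none of these 6 windows and are in 12.4% of all windows. The SOX core ACAAT, also searched on both strands, was found only in the downstream window of *Papss2*, and it occurs in 27.7% of all windows. Exon-level counts were not used here, so the reads of *Papss2* give no division between its starts.

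The precursors come first. *Ugdh*, which oxidises UDP-glucose to the UDP-glucuronic acid that chondroitin, heparan sulfate and hyaluronan all need, lies on chromosome 5 of GRCm38 (65413221 to 65435949, minus strand, with positions here and for the other genes from GENCODE M21). Its level was 357, 476 and 495 normalized CPM in *Postn*-/- replicates 1, 2 and 3, compared with 525, 476 and 442 in *wt* replicates 1, 2 and 3. The lowest value was that of *Postn*-/- replicate 1, and the other 5 samples lay within a narrow band in which the genotypes overlapped. The log2 fold change was -0.12 (95% interval -0.47 to 0.23, unadjusted p = 0.453 and adjusted p = 0.844 in the edgeR test).

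Sulfate enters the cell through the transporter encoded by *Slc26a2* (chromosome 18, 61192919 to 61211612, minus strand) and is activated by the PAPS synthase encoded by *Papss2* (chromosome 19, 32595790 to 32667187, plus strand), which makes the sulfate donor of all sulfotransferases. *Slc26a2* was at 712, 625 and 620.4 normalized CPM in *Postn*-/-, compared with 567, 846 and 708 in *wt*, in the order of the replicate numbers. The *wt* samples held both the lowest and the highest value, so the 3 *Postn*-/- samples lay inside their range, and the log2 fold change was -0.12 (95% interval -0.49 to 0.26, unadjusted p = 0.499 from edgeR). *Papss2* was at 1504, 1112 and 1565 normalized CPM in *Postn*-/-, compared with 1119, 1601 and 1569 in *wt*. Each genotype had 1 low sample, *Postn*-/- replicate 2 and *wt* replicate 1, and the remaining 4 samples were within 1504 to 1601. The log2 fold change was -0.04 (95% interval -0.49 to 0.41, unadjusted p = 0.854 from edgeR).

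The chain begins with *Xylt1* (chromosome 7, 117380979 to 117673580, plus strand), whose product adds xylose to serines of the core protein. The gene was at 32.7, 20.9 and 31.8 normalized CPM in *Postn*-/-, compared with 26.5, 28.8 and 28.3 in *wt*. The *wt* samples were close together, and the *Postn*-/- samples lay on both sides of them, with SDs of 6.57 in *Postn*-/- and 1.23 in *wt* (n = 3 each). The log2 fold change was 0.03 (95% interval -0.38 to 0.44, unadjusted p = 0.854 from edgeR), and without *Postn*-/- replicate 2 it was 0.21.

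*Csgalnact1* (chromosome 8, 68356781 to 68735146, minus strand) encodes the transferase that adds the first N-acetylgalactosamine to the linker, which commits a chain to chondroitin. It was at 420.4, 269.6 and 356 normalized CPM in *Postn*-/-, compared with 465, 317 and 401 in *wt*. In both genotypes replicate 1 was the highest and replicate 2 the lowest. Its difference was the largest in size of the 10 genes, with a log2 fold change of -0.18 (95% interval -0.63 to 0.28, unadjusted p = 0.399 and adjusted p = 0.827 in the edgeR test), and without *Postn*-/- replicate 2 it was -0.02. With a block for the replicate number it was -0.18 as well (unadjusted p = 0.0957 and adjusted p = 0.603 in the edgeR test).

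The chondroitin chain is extended by the synthase encoded by *Chsy1* (chromosome 7, 66109515 to 66173798, plus strand) together with the polymerizing factor encoded by *Chpf* (chromosome 1, 75474569 to 75479307, minus strand). *Chsy1* was at 93.6, 93.3 and 79.2 normalized CPM in *Postn*-/-, compared with 59.5, 134 and 89.2 in *wt*. It had the widest spread of the 10 genes, 2.24-fold between *wt* replicate 1 and *wt* replicate 2, with the *Postn*-/- samples between them. The log2 fold change was -0.09 (95% interval -0.69 to 0.52, unadjusted p = 0.751 from edgeR). Single *wt* samples set its direction, since it was -0.33 without *wt* replicate 1 and 0.25 without *wt* replicate 2. *Chpf* was steadier, at 27.2, 36.2 and 28.3 normalized CPM in *Postn*-/-, compared with 27.1, 32.0 and 29.0 in *wt*. Replicate 2 was the highest in each genotype, and the log2 fold change was 0.06 (95% interval -0.27 to 0.39, unadjusted p = 0.692 from edgeR).

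*Chst11* (chromosome 10, 82985498 to 83195900, plus strand), the sulfotransferase that places sulfate on carbon 4 of the N-acetylgalactosamine of chondroitin, was at 134, 139.9 and 154 normalized CPM in *Postn*-/-, compared with 115, 146 and 135 in *wt*. It had the smallest standard error of the 10 genes, 0.12 on the log2 scale, and *wt* replicate 1 was the low sample. Its log2 fold change was 0.11 (95% interval -0.17 to 0.39, unadjusted p = 0.375 and adjusted p = 0.82 in the edgeR test), the lowest p of the 10 in the fit without covariates.

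*Ext1* and *Has2* serve the other chains. *Ext1* (chromosome 15, 53064038 to 53346159, minus strand) encodes a subunit of the heparan sulfate polymerase and was at 20.8, 35.6 and 24.1 normalized CPM in *Postn*-/-, compared with 24.0, 25.7 and 22.6 in *wt*. *Postn*-/- replicate 2 stood above the other 5 samples, whose values were between 20.8 and 25.7. The log2 fold change was 0.15 (95% interval -0.31 to 0.62, unadjusted p = 0.463 from edgeR), and without *Postn*-/- replicate 2 it was -0.11. *Has2* (chromosome 15, 56665627 to 56694539, minus strand), the synthase that extrudes hyaluronan at the plasma membrane, was at 13.6, 20.0 and 15.0 normalized CPM in *Postn*-/-, compared with 12.5, 22.3 and 14.5 in *wt*. Replicate 2 was the highest and replicate 1 the lowest in both genotypes. The log2 fold change was -0.02 (95% interval -0.59 to 0.55, unadjusted p = 0.938 from edgeR), with 0.26 without *wt* replicate 2 and -0.20 without *Postn*-/- replicate 2. *Has2* shares 182 exon bases (4.30% of its exons) with the antisense gene *Has2os*, which was at 4.51 to 7.43 normalized CPM. Only unambiguous reads were counted, so if counting ignored strand, reads on these bases were given to neither gene.

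**Figure D2:**
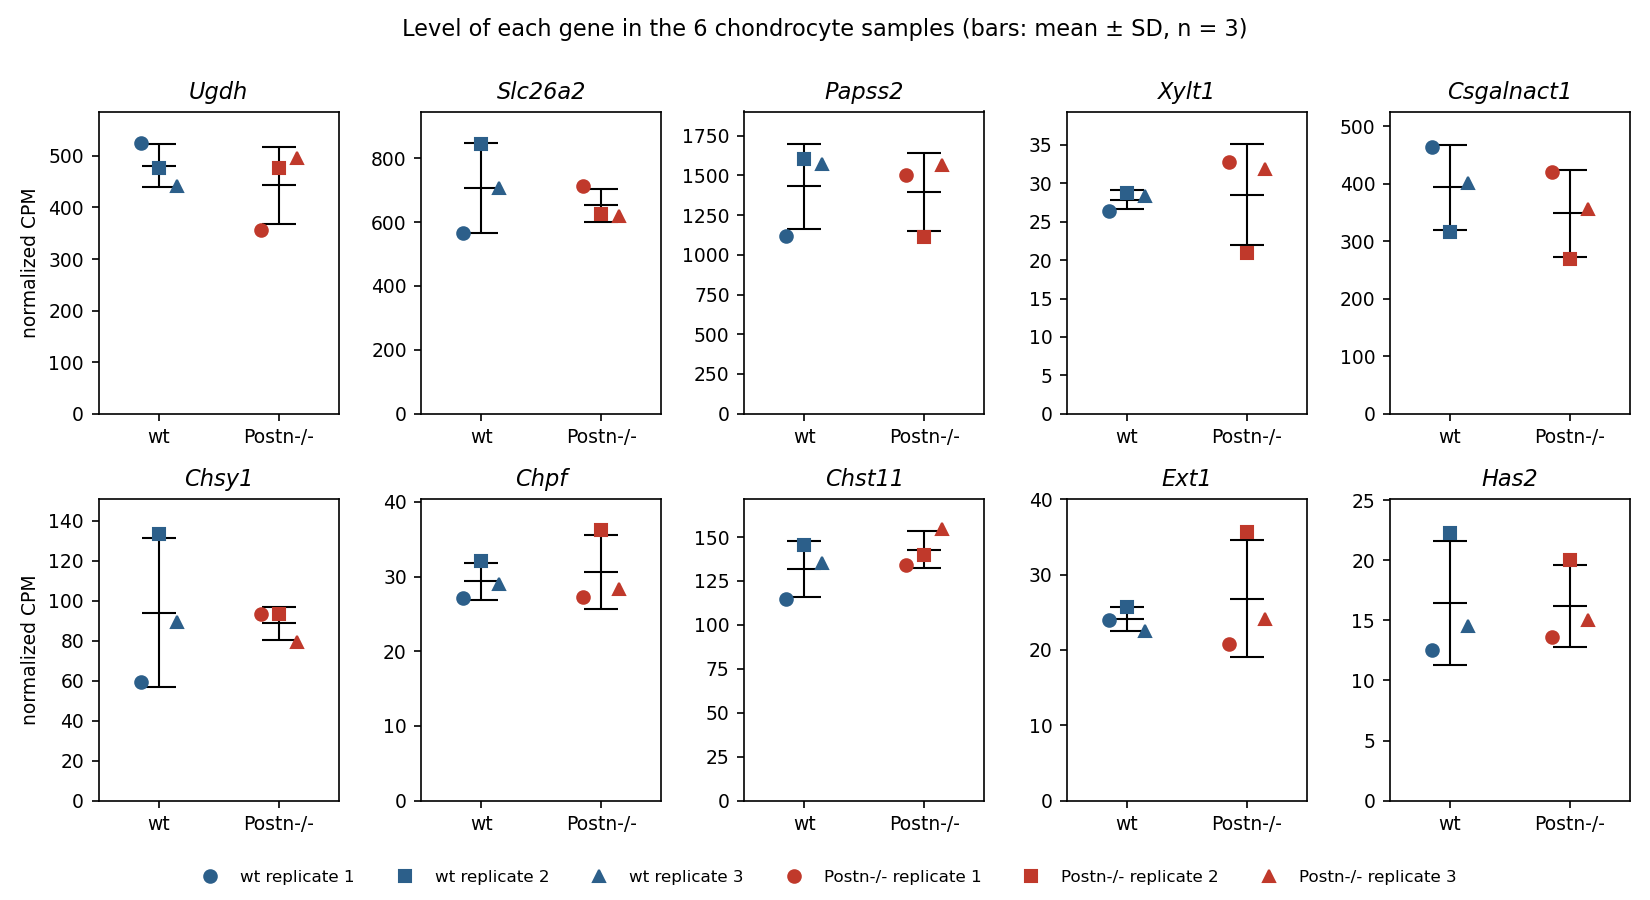
Normalized CPM (axis from 0) of the 10 genes in each of the 3 *wt* (blue) and 3 *Postn*-/- (red) samples, with marker shapes for the replicate number and bars for mean ± SD, n = 3. The genotypes overlap in every panel, and *Chsy1* in *wt* is the most spread, from 59.5 to 134.

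Deviations of single samples did not follow the genotype, and a pair of *wt* samples lay apart. *wt* replicate 1 was below the gene's own mean for 8 of the 10 genes (median deviation -0.19 on the log2 scale) and *wt* replicate 2 above it for 9 of 10 (median 0.10), whereas the other 4 samples were above for 4 to 6 genes, with medians between -0.05 and 0.04. *wt* replicate 1 had the lowest value of all 6 samples for 5 genes, *Chsy1*, *Chpf*, *Chst11*, *Slc26a2* and *Has2*, and the highest for *Csgalnact1* and *Ugdh*. The same sample had the highest sum of dividing-cell markers and the lowest sum of chondrocyte markers, 24319 normalized CPM against 30712 to 41570 in the other 5, and the part of either in these values was not tested. The median log2 fold change of the 10 genes was -0.05 without *wt* replicate 1 and turned to 0.0922 without *wt* replicate 2, and in either case 0 of 10 had an unadjusted p no higher than 0.05. The median SD between replicates of 1 genotype was 0.27 on the log2 scale for the 10 genes and 0.23 for all tested genes, and 6 of the 10 lay above the latter.

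**Figure D3:**
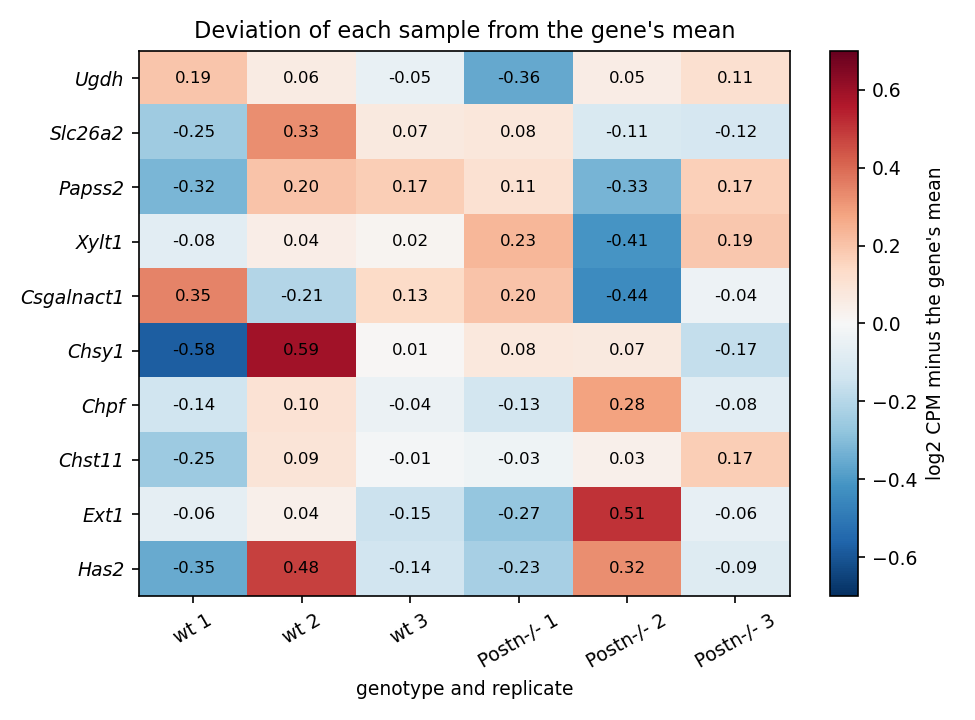
Log2 CPM of each of the 10 genes in each sample minus the gene's mean over the 6 samples (red above, blue below). *wt* replicate 1 is mostly blue and *wt* replicate 2 mostly red, with *Chsy1* at -0.58 and 0.59, and neither color follows the genotype.

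Levels of different genes were compared as normalized CPM per kilobase of exon. *Papss2* was at a mean of 388 over the 6 samples, 4.99 times the next gene, *Csgalnact1* at 77.8. *Ugdh* (67.9) and *Slc26a2* (54.9) followed, then *Chst11* (24.8), *Chsy1* (21.9), *Chpf* (7.78), *Xylt1* (7.37), *Has2* (3.85) and *Ext1* (3.15), so the order spanned 123-fold per length. The ranges of the 6 samples did not overlap between *Papss2* and *Csgalnact1*, *Slc26a2* and *Chst11*, *Chsy1* and *Chpf*, and *Xylt1* and *Has2*, while the other 5 neighbouring pairs overlapped and were not separated beyond their spread. The sulfate-activating enzyme was thus at the top of the order per length and the hyaluronan and heparan sulfate enzymes at the bottom, in both genotypes. The place of *Chsy1* is uncertain, because 48.9% of its exon bases coincide with the antisense gene *Gm26827*. All 2037 exon bases of *Gm26827* are shared in this way, and it was counted with 0 reads in all 6 samples. Only reads assigned to a gene without ambiguity were counted, and the strand setting is not given in the sources used here. If all reads fell on the 2130 exon bases not shared, the level of *Chsy1* would be 42.9 per kilobase, above *Chst11*.

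For 8 of the 10 genes the level was then set beside that of paralogs, per length, to see which isoenzyme had the higher RNA level. *Papss2* exceeded *Papss1* by 4.29 to 8.93 times over the 6 samples, with the lowest ratio in *wt* replicate 1. *Csgalnact1* exceeded *Csgalnact2* by 6.38 to 10.4 times, *Xylt1* exceeded *Xylt2* by 2.96 to 6.63 times, and *Chsy1* exceeded *Chsy3* by 5.64 to 8.58 times. The first-named gene of these 4 pairs was thus the higher in each of the 6 samples. The level of *Chsy1* was taken over all its exon bases, 48.9% of which coincide with *Gm26827*. If reads on those bases were not counted, its ratios to *Chsy3* are too low.

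For *Chpf*, *Ext1* and *Chst11* a paralog was higher. *Chpf* was at 0.394 to 0.589 of the level of *Chpf2* per length. *Ext1* was at 0.141 to 0.263 of *Ext2*, the other subunit of the polymerase, with 0.141, 0.241 and 0.179 in *Postn*-/- and 0.263, 0.231 and 0.230 in *wt*. *Chst11* was at 0.234 to 0.382 of *Chst12*, which encodes an enzyme of the same 4-sulfation step. In contrast, *Chst3*, of the 6-sulfation step, was at a mean of 0.276 normalized CPM per kilobase, and *Chst13* had 10, 4 and 1 reads in *Postn*-/- and 6, 5 and 0 in *wt*. None of the ratios within these pairs separated the genotypes.

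*Has2* had the most reads of the hyaluronan synthase genes in each sample, and per length it exceeded *Has1* by 4.17 times in *Postn*-/- replicate 1 and by 16.03 to 30.3 times in the other 5. *Has1* had 40, 8 and 9 reads in *Postn*-/- and 10, 10 and 7 in *wt*, so that *Postn*-/- replicate 1 was the high sample at 1.61 normalized CPM and the other 5 were between 0.325 and 0.452. *Has3* had 5, 1 and 0 reads in *Postn*-/- and 5, 0 and 3 in *wt*, near the counting floor of 3 reads. Neither passed the filter on low counts, and *Has2* had 303 to 493 reads per sample.

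**Figure D4:**
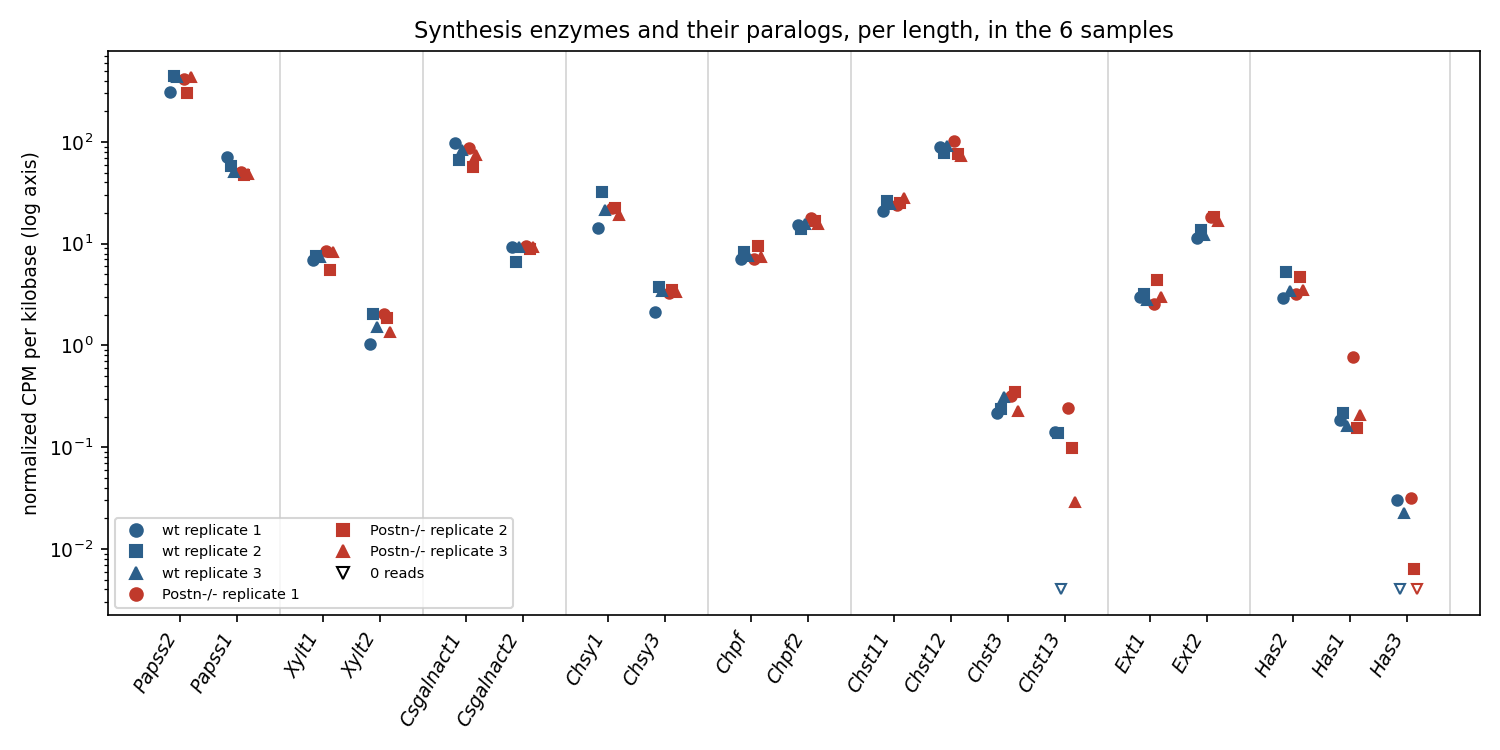
Normalized CPM per kilobase of exon (log axis) of 8 of the 10 genes and their paralogs in each *wt* (blue) and *Postn*-/- (red) sample, with open triangles at the bottom for 0 reads. *Papss2*, *Csgalnact1*, *Xylt1*, *Chsy1* and *Has2* lie above their paralogs, and *Chpf*, *Chst11* and *Ext1* below *Chpf2*, *Chst12* and *Ext2*.

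The 10 genes were placed among 97 other genes of the same pathways, of which 89 were tested. Of these 89, 0 had an adjusted p no higher than 0.05 in the edgeR test, and 6 had an unadjusted p no higher than 0.05 (6.74%, beside 6.3% of all tested genes), 5 higher and 1 lower in *Postn*-/-. Among all 99 tested genes, the 10 included, the count was 6 as well. It was 10 with voomWithQualityWeights, 18 with surrogate variables added, 13 with a replicate block and 11 without *Postn*-/- replicate 2, where the count over all genes went from 916 to 1337, 1997, 1188 and 1104. The genotypes did not overlap for 12 of the 89 (13.5%, beside 13.6% of all tested genes). By step, with the 10 genes now included, 0 of 7 linker genes, 0 of 6 chondroitin polymerisation genes, 0 of 11 heparan sulfate modification genes, 0 of 5 keratan sulfate genes, 0 of 8 genes of hyaluronan breakdown and binding and 0 of 16 core proteins had an unadjusted p no higher than 0.05 in the edgeR test. Among 9 genes of chondroitin and dermatan modification, 5 of heparan sulfate polymerisation, 8 of sulfate transport and activation and 11 of sugar nucleotide supply there was 1 each, and among 12 lysosomal breakdown genes there were 2.

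The lowest p of the 6 was that of *Ext2*, the partner of *Ext1*, which was at 134, 134 and 122 normalized CPM in *Postn*-/-, compared with 82.9, 101 and 88.9 in *wt*. Every *Postn*-/- sample was above every *wt* sample, and the log2 fold change was 0.52 (95% interval 0.27 to 0.77, unadjusted p = 0.00152 and adjusted p = 0.717 in the edgeR test). Likewise, *Chst14*, the dermatan 4-sulfotransferase, was at 17.3, 23.9 and 19.6 normalized CPM in *Postn*-/-, compared with 11.7, 16.7 and 11.7 in *wt* (log2 fold change of 0.60, unadjusted p = 0.0157 and adjusted p = 0.717 from edgeR). *Slc35b3*, which carries activated sulfate into the Golgi, had a log2 fold change of 0.32 (unadjusted p = 0.044 from edgeR). *Naglu*, a lysosomal enzyme of heparan sulfate breakdown, had a log2 fold change of 0.54 (unadjusted p = 0.00974 from edgeR). *Pgm3*, of UDP-N-acetylglucosamine synthesis, was the 1 with a lower value, at 85.2, 71.7 and 68.7 normalized CPM in *Postn*-/-, compared with 113, 94.5 and 88.2 in *wt*, giving a log2 fold change of -0.39 (unadjusted p = 0.0199 from edgeR). Over the 16 alternatives the unadjusted p of *Ext2* and *Naglu* stayed below 0.05, whereas that of *Slc35b3* rose above it under 7 (up to 0.149), among them the Wald test of DESeq2, its size factors and no filter on low counts, and leaving out *Postn*-/- replicate 1 or 3 or *wt* replicate 2 or 3. That of *Chst14* did so without *Postn*-/- replicate 2 or *wt* replicate 3 (up to 0.0612), and that of *Pgm3* without *Postn*-/- replicate 2 or 3 or *wt* replicate 1 (up to 0.0735), all in edgeR. All 6 had an adjusted p of 0.717, and for all 6 the genotypes did not overlap.

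**Figure D5:**
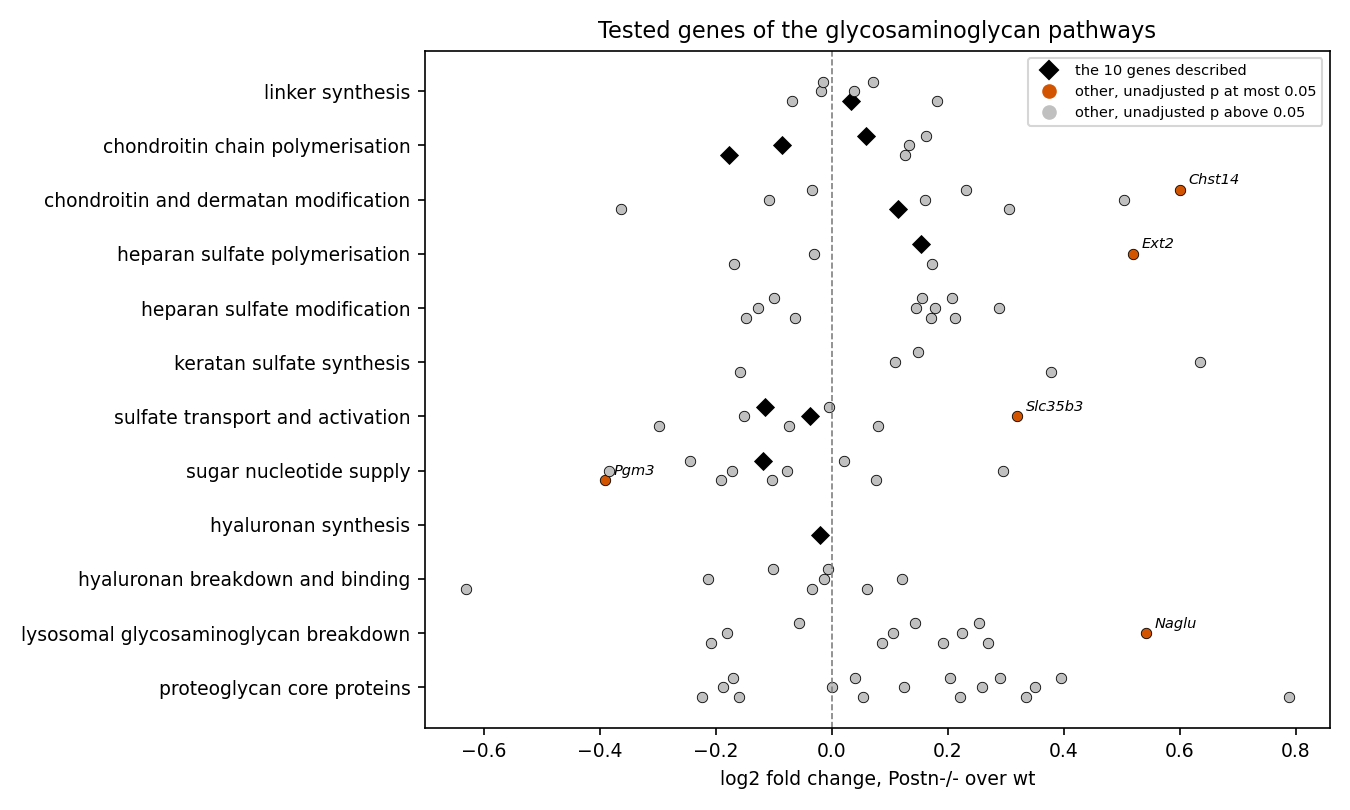
Log2 fold change, *Postn*-/- over *wt*, of the tested genes of each pathway list, all but 1 of them drawn, with the 10 genes as black diamonds, other genes with an unadjusted p no higher than 0.05 in orange and the rest in gray. The 10 genes lie between -0.18 and 0.15, and 0 of all 99 tested genes passed the adjusted threshold.

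The pathway gene whose pattern over the 6 samples was most like that of each of the 10 was found as the smallest root-mean-square difference of gene-centred log2 CPM among 98 candidates. *Slc26a2* was closest to *Hs3st3b1* (difference 0.0813), *Papss2* to *Slc35a3* (0.0887), and *Chpf* and *Ext1* both to *Gpc4* (0.101 and 0.111). *Chst11* was closest to *B4galt7* (0.109), *Csgalnact1* to *Sgsh* (0.110), *Has2* to *Gpc1* (0.123), *Ugdh* to *Hyal2* (0.135), *Xylt1* to *Glce* (0.140) and *Chsy1* to *Extl1* (0.141), with 0 of the 10 closest to another of the 10. The median difference from all candidates ran from 0.274 to 0.397, and the difference from a gene without any deviation from 0.133 (*Chst11*) to 0.346 (*Chsy1*). For *Chst11* and *Ugdh* (0.178 from such a flat gene) the closest gene was therefore little closer than no pattern.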

How the data were processed

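RNA-seq of 3 *Postn*-/- and 3 *wt* samples was used, grouped by the sample titles. Single-end 50-base reads were aligned by the authors with STAR 2.0.4b, and featureCounts 1.4.5 assigned to genes those with 1 unambiguous position. They deposited raw counts beside CPM and RPKM, which only rescale the counts and were checked against them. The submitters' notes name mm9, but GENCODE M21 (GRCm38) gave names and positions for 40340 of 41388 genes. Of these matched genes, 97.9% had a start within 5 kb of the annotated one. Whether counting used strand is not given in the sources used here. rRNA genes (355) were left out.

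Genes above 1 CPM in at least 2 samples were tested with edgeR 4.0.16 (R 4.3.3): TMM factors, the quasi-likelihood test without covariates and Benjamini-Hochberg adjustment. Normalized CPM are counts scaled by library size and TMM factor. Each standard error is the size of the log2 fold change divided by √F, and intervals use the t distribution. The common coefficient of variation was 0.208. The code was tested on simulated counts, where large changes were found and small ones mostly missed. Alternatives used DESeq2 1.42.0, limma 3.58.1 and sva 3.50.0 (2 surrogate variables). The chi-square per degree of freedom of all library pairs was at least 26.5, so each counted as 1 sample. Named were the 10 members, *Postn*, 11 paralogs, any pathway gene at an unadjusted p of at most 0.05 and each member's closest pattern; 1 such pathway gene is counted but not reported by name here. Members, lists and tests were chosen with earlier results of these data known. Promoters came from RefSeq (GRCm38.p6), matched for 5 of the 10 genes.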

Additional observations from a re-analysis of the deposited data

How the results depend on the processing

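Under the 16 alternatives, 0 of the 10 genes had an adjusted or an unadjusted p of at most 0.05. The lowest unadjusted p was 0.0957, for *Csgalnact1* in edgeR with the replicate block. Of 160 refitted log2 fold changes 143 kept their direction. The 3 that turned with all samples kept were *Xylt1* at -0.0115 (voomWithQualityWeights with surrogate variables) and *Has2* at 0.0045 (voomWithQualityWeights) and 0.0025 (replicate block). With each sample left out in turn, the ranges were -0.078 to 0.21 for *Xylt1*, -0.33 to 0.25 for *Chsy1*, -0.0813 to 0.14 for *Chpf*, -0.33 to -0.02 for *Csgalnact1*, 0.02 to 0.19 for *Chst11*, -0.19 to 0.10 for *Papss2*, -0.25 to 0.0344 for *Slc26a2*, -0.21 to 0.0146 for *Ugdh*, -0.20 to 0.26 for *Has2*, -0.11 to 0.31 for *Ext1* and -0.0838 to 0.0922 for their median.

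Over all genes, 2 were called at an adjusted p of at most 0.05, against 1 with upper quartile factors, library size only, voomWithQualityWeights or the replicate block, 9 without a filter (more genes tested), 0 above 1 CPM in all 6 samples (fewer genes tested; both called genes fell below it), 11 with DESeq2, 4 with surrogate variables and 1 to 2 with a sample left out. At an unadjusted p, 916 genes became 1797 without a filter, 1997 with surrogate variables and 425 to 1257 with a sample left out. Among pathway genes the 6 at an unadjusted p became 10 with voomWithQualityWeights (1337 over all genes), 18 with surrogate variables (1997), 13 with the replicate block (1188) and 5 to 11 with a sample left out, and 0 passed the adjusted threshold in each. Where the count over all genes stands in brackets, the pathway count rose by the larger factor. The causes were otherwise not tested. No label pairs the same-numbered samples beyond the number. Their deviations correlated at 0.0824, 0.155 and 0.143 over genes, each sample best with its own number. The other pairs of a *Postn*-/- and a *wt* sample were at -0.130 to 0.0143. Whether same-numbered samples were prepared together is not given and was not tested.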
